A study of Mus musculus with 12 samples.

Results

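The response of control RAW264.7 cells to lipopolysaccharide (LPS) was read from 6 of the 12 libraries of the series and from 10763 of its 18190 genes. RAW264.7 is a mouse macrophage-like tumour line. The cells came, per the labels' protocols, from a monoclonal line that stably expressed a negative control shRNA, although the labels enter no knockdown for them. The LPS group holds 3 libraries of these cells after 6 h with 500 ng/ml LPS, and the untreated group holds 3 libraries of the same line without LPS. By these protocols both groups carry the control shRNA and stem from 1 clone, with no parental cells among them. The labels do not settle this. The genes kept were those at 1 FPKM or more (fragments per kilobase of transcript, scaled to the fragments of the library) in at least 3 of the 6 libraries. The other 7427 genes were below this, and 967 of them were listed at 0 in all 6 libraries.

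LPS is a component of the outer membrane of Gram-negative bacteria. It is handed by CD14 to the receptor TLR4 and its partner MD-2, which signal through the adaptors MyD88 and TRIF to NF-κB, MAP kinases and interferon regulatory factors. In macrophages this is known for a fast wave of cytokine and feedback genes, a later wave driven by secreted type I interferon, a changed metabolism and a stop in proliferation. The question taken up here is how far the response reached beyond the best known cytokines, by level of expression and by function.

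FPKM summed to between 489182 and 495373 in the LPS libraries and between 466307 and 474482 in the untreated libraries. Read totals were not given. The FPKM worth of a single fragment in 46 short genes, a choice that leans towards equal depths, put relative depth between 0.976 and 1.015. At 1 FPKM or more there were 10119 to 10145 genes in LPS libraries and 10495 to 10545 in untreated libraries. Across the kept genes, log2(FPKM + 1) correlated at 0.993 to 0.996 (Pearson's r) within groups and at 0.794 to 0.8 between an LPS and an untreated library. Untreated library 3 held more of a few genes that LPS raised strongly, such as Acod1. Whether the replicates came from separate cultures was not stated, so p-values measure the spread between these libraries, which may be technical.

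Most kept genes differed between the groups. At an adjusted p under 0.05 (limma on log2(FPKM + 1), Benjamini-Hochberg over all 10763 genes), 2686 genes were higher with LPS (25.0%) and 6774 were lower (62.9%). The median standard error of a change was 0.0485 log2 units, so small differences passed. A change of at least 1 log2 unit was therefore asked for in what follows. By this, 912 genes rose (8.47%) and 2375 fell (22.1%). The changes were uneven in size. Of the rises 390 reached 2 log2 units, 103 reached 4 and 31 reached 6, while among the falls 587 reached 2, 34 reached 4 and 1 reached 5.

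The balance of rises and falls depended on the scale. The median change of all genes was -0.39 log2 units as deposited, and median-of-ratios scaling, which sets the typical gene to no change, moved it by 0.39. After that scaling 4700 genes were called higher and 4615 lower, and by 1 log2 unit or more 1386 rose (12.9%) and 1408 fell (13.1%). All 912 rises held on both scales, and so did 1408 of the 2375 falls. FPKM gives shares of the messages of a library, so a general loss of RNA and a rise of a few abundant messages cannot be told apart here. Changes are given as deposited, and for falls the number that held on both scales is added.

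**Figure D1:**
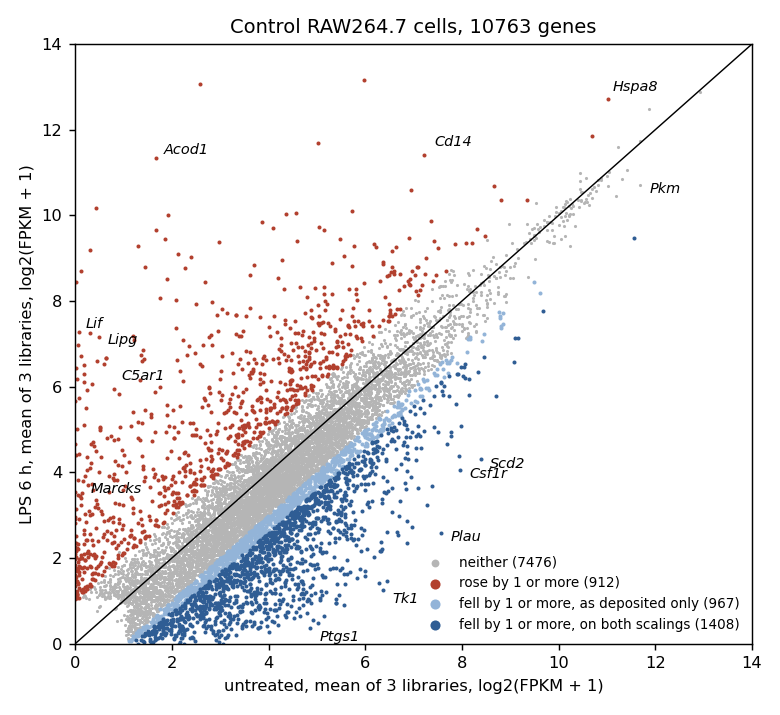
Mean log2(FPKM + 1) of the 3 LPS libraries (vertical axis) against that of the 3 untreated libraries (horizontal axis) for 10763 genes, with the line of equality. The 912 genes that rose by at least 1 log2 unit lie above the line and reach farther from it than the 1408 dark blue genes that fell on both scales; 967 further falls (light blue) held only as deposited.

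Genes were also counted in bands of their mean FPKM over the 6 libraries. A large rise by itself lifts a gene into a higher band, as for Acod1, so the shares by band are a description and cannot show whether the response depended on the starting level. Among the 790 genes with a mean over 100 FPKM in the 6 libraries, 20.3% rose by that much and 10.0% fell, 4.68% on both scales. Among the 4195 genes between 5 and 20 FPKM, 5.41% rose and 25.7% fell, 15.3% on both scales. The 1540 genes between 2 and 5 FPKM had the highest share of falls, 28.7%, and 18.0% of these 1540 genes fell on both scales. The median change was -0.03 in the highest band and -0.55 between 2 and 5 FPKM. The +1 in the log shrinks the changes of genes near 1 FPKM. Best known cytokines were left out when the largest rise and fall of each band were looked up. Over 100 FPKM the largest rise and fall other than cytokines were those of Acod1 and Scd2, a stearoyl-CoA desaturase that makes monounsaturated fatty acids. Scd2 had 18.9, 18.6 and 18.8 FPKM with LPS, against 340.3, 330.3 and 329.6 FPKM untreated. Between 2 and 5 FPKM the largest rise was that of Marcks, an actin-binding protein kinase C substrate. It had 9.84, 9.65 and 9.43 FPKM with LPS, against 0.08, 0.14 and 0.04 FPKM untreated. Its relative Marcksl1 was in the top band, with a mean of 1098 ± 7.25 FPKM with LPS and 51.8 ± 3.29 FPKM untreated (SD, n = 3 each).

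**Figure D2:**
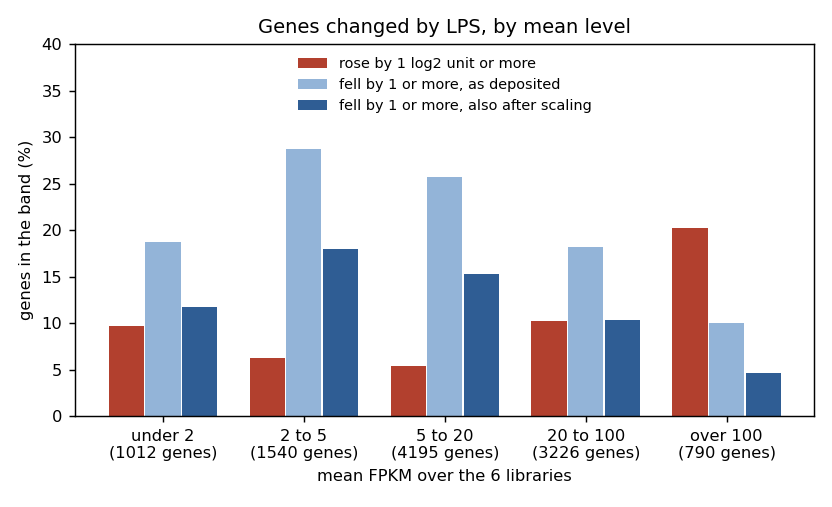
Percent of genes in each band of mean FPKM over the 6 libraries that rose (red) or fell by at least 1 log2 unit as deposited (light blue) and also after median-of-ratios scaling (dark blue). The share that rose is highest over 100 FPKM (20.3%), and the share that fell is highest between 2 and 5 FPKM (28.7%).

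A subset of genes crossed 1 FPKM altogether. There were 276 genes under 1 FPKM in every untreated library and at 1 FPKM or more in every LPS library, of which 18 had symbols of the best known cytokines and chemokines. In the opposite direction, 564 genes were at 1 FPKM or more in every untreated library and under 1 FPKM in every LPS library. These 840 genes passed the filter through a single group, so that they had to differ, and their number is a description and not a test. At 5 FPKM or more in the group where they were high, 85 genes came on, 12 of them with such symbols, and 136 went off. The symbols do not cover every cytokine, and Lif is counted outside them. Those that came on included Hdc, which makes histamine (95.9 ± 2.68 FPKM with LPS and 0.370 ± 0.0854 untreated), and Nos2, which makes nitric oxide. Those that went off included the cyclooxygenase Ptgs1, the lysosomal transcription factor Tfeb, the TGF-β mediator Smad3 and the sialyltransferase St6gal1.

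A small set of genes took over a large part of the messages. The 912 genes that rose made up 26.6 ± 0.211% of the FPKM sum of LPS libraries and 4.81 ± 0.0190% of that of untreated libraries (SD, n = 3 each). The 30 genes among them with symbols of the best known cytokines and chemokines accounted for 5.60 ± 0.207% with LPS and 0.0493 ± 0.00202% untreated. The 2375 genes that fell took 4.86 ± 0.0253% with LPS and 17.2 ± 0.191% untreated. These classes were chosen on the same libraries, so their shares are given without a test. Of the lists not chosen on direction, chaperones took 3.02 ± 0.0178% with LPS and 1.89 ± 0.0313% untreated, and genes with proteasome symbols 1.46 ± 0.00544% with LPS and 1.01 ± 0.0131% untreated. Without Hspa8, left out after its value was seen, the chaperones took 1.66 ± 0.0148% with LPS and 1.44 ± 0.0187% untreated, so most of the difference lay in that gene. Cytosolic ribosomal proteins took 15.3 ± 0.0541% with LPS and 16.6 ± 0.304% untreated. In these 3 lists, as listed, the LPS and untreated libraries did not overlap (exact permutation test, p = 0.1, the smallest for 3 against 3). That does not set them apart from other genes. Vacuolar ATPase genes, at 0.248% with LPS and 0.243% untreated, did not overlap either. Among the 10763 single genes, 2726 were higher and 6806 lower in every LPS library than in any untreated one. The 10 most abundant genes took 10.7% to 11.1% of the sum in LPS libraries and 6.99% to 7.19% in untreated libraries.

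**Figure D3:**
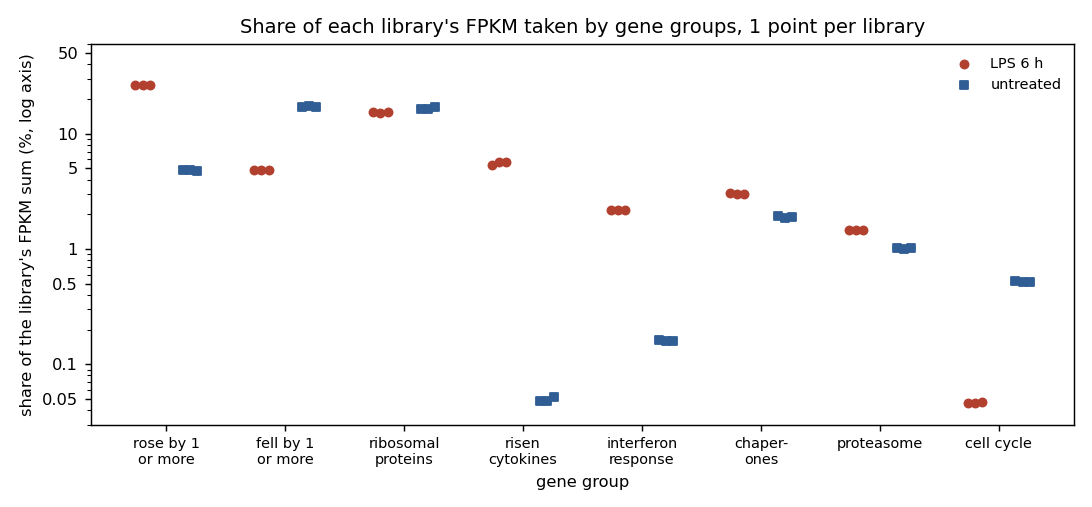
Share of each library's FPKM sum (percent, log axis) taken by groups of genes, with 1 point per library and LPS (red circles) left of untreated (blue squares) in each pair. Genes that rose took 26.6% of the sum with LPS, against 4.81% untreated, while the 40 listed cell cycle genes took 0.0462% with LPS and 0.520% untreated.

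The top of the expression range changed its members. Of the 20 most abundant genes of each group 13 were shared, of the top 100 there were 79, and of the top 500 there were 316. The 6 largest gains in mean FPKM were those of Ccl3, Ccl5, Hspa8, Ccl4, Cd14 and Acod1, so a heat shock cognate chaperone ranked among chemokines. Hspa8, which folds client proteins and uncoats clathrin vesicles, had 6669, 6692 and 6728 FPKM with LPS, against 2137, 2021 and 2076 FPKM untreated. The 6 largest losses were those of Ptma, Pkm, Ppia, Rps2, Tuba1b and Gapdh. Ptma, a small acidic nuclear protein, had 710.1, 701.4 and 723.1 FPKM with LPS, against 2878, 3175 and 2996 FPKM untreated. After scaling, Ptma, the tubulin Tuba1b, the glycolytic enzyme Pkm and the prolyl isomerase Ppia were still called lower, with changes of -1.64, -1.48, -0.51 and -0.30. The scaled changes of Gapdh (0.09) and Rps2 (-0.03) were close to 0, so their losses did not hold on both scales.

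Among single genes, leaving out the best known cytokines and chemokines by symbol and predicted models, the 12 largest rises among genes with a mean of 5 FPKM or more ran from 6.5 to 9.7 log2 units. They were Acod1, Rsad2, Ptgs2, Ifit3, Lif, Ifi202b, Lipg, Gbp3, Cmpk2, Ifit1, Gbp5 and Lilr4b. Several are interferon-induced, such as the antiviral enzyme Rsad2, the mitochondrial nucleotide kinase Cmpk2 and the guanylate-binding GTPases Gbp3 and Gbp5. Ifit3 and Lilr4b have near-identical copies, so the division of reads between them is uncertain. Of the 912 genes that rose, 30 had symbols of the best known cytokines and chemokines and 36 were on the interferon list. This left 846 others, Lif among them. The interferon list holds only these 36 genes and was written with earlier results of these data known. It does not cover every interferon-induced gene, and Gbp3 is counted among the others. The 846 are therefore not a count of genes outside the cytokine and interferon responses.

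The others held enzymes of several routes. Acod1, which makes itaconate from cis-aconitate, had 2519, 2570 and 2627 FPKM with LPS, against 1.66, 1.46 and 3.49 FPKM untreated. Its change was 9.70 ± 0.20 (SE), with an adjusted p of 6.21e-10. Untreated library 3 was the highest of its group. Ptgs2, the inducible cyclooxygenase, had 796.4, 814.3 and 792.8 FPKM with LPS, against 2.03, 2.12 and 2.44 FPKM untreated. Ptgs1, its constitutive relative, went the other way, with 0.30, 0.38 and 0.20 FPKM with LPS, against 27.9, 27.5 and 28.5 FPKM untreated. The step after cyclooxygenase moved with Ptgs2, since the prostaglandin E synthase Ptges had 24.5 ± 0.652 FPKM with LPS and 0.253 ± 0.0351 FPKM untreated. The changes of Ptgs2, Ptgs1 and Ptges were 7.97, -4.49 and 4.34, and the adjusted p of Ptgs2 was 2.56e-12. Ptgs1 passed the filter through the untreated libraries alone, and Ptges through the LPS libraries alone. These latter genes had to differ, so no p-value is given for them.

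Lif and Lipg came from near nothing. Lif, a cytokine of the interleukin 6 family that those symbols do not cover, had 155.1, 151.2 and 152.7 FPKM with LPS, against 0.04, 0.03 and 0.09 FPKM untreated. Lipg, a secreted endothelial lipase that hydrolyses lipoprotein phospholipids, had 150.0, 153.1 and 152.3 FPKM with LPS, against 0.23, 0.22 and 0.29 FPKM untreated. The changes were 7.19 for Lif and 6.94 for Lipg. No library of one group came near the range of the other. Both genes passed the filter through the LPS libraries alone, so they had to differ and no p-value is given. Further secreted or surface proteins, chosen after their values were seen, were Procr, the protein C receptor, with 115.4, 112.0 and 119.0 FPKM with LPS, against 1.73, 1.54 and 1.71 FPKM untreated, and the metalloproteinase inhibitor Timp1, with 96.6, 108.7 and 110.2 FPKM with LPS, against 1.61, 1.37 and 1.69 FPKM untreated.

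Promoter windows were read for 8 of the 24 genes with the largest rises and falls, the first 4 of each with an entry in the RefSeq table for GRCm38.p6. A window runs from 250 bases before to 50 bases after the start. It was searched for the interferon-stimulated response element (ISRE, TTTCNNTTTC), a κB site (GGGANNTTCC), the CCAAT box, 2 E2F sites (TTTCCCGC and TTTGGCGC), the cell cycle homology region (CHR, TTTGAA), all on both strands, and a TATA box (TATAAA on the gene's strand, beginning 40 to 20 bases before the start). The ISRE was in Rsad2 and, in 2 places, in Ifit3, and it was also in E2f8, which fell. Of the windows of all 27025 genes of the table, 3.49% held an ISRE, 1.43% the κB site, 37.9% a CCAAT box, 18.1% a CHR, 1.11% and 0.537% the E2F sites and 2.22% the TATA box. The κB site was in 1 of the 8 windows, that of Birc5, which fell. No E2F site was in any of the 8. Entries were found for 8562 of the 10763 genes (79.6%) and for 76.4% of the genes that rose. At that coverage no share of motifs is given for genes that rose or fell.

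The windows of 3 genes that rose are shown with matches in capitals, an ISRE in Rsad2 and 2 in Ifit3, a TATA box in Acod1, and a CCAAT box in Acod1 and Ifit3. Acod1 lies at chr14:103046762-103047061 on the plus strand, Rsad2 at chr12:26456403-26456702 on the minus strand and Ifit3 at chr19:34583279-34583578 on the plus strand. The matches do not overlap each other. A match is a run of letters, and binding was not measured.
Acod1: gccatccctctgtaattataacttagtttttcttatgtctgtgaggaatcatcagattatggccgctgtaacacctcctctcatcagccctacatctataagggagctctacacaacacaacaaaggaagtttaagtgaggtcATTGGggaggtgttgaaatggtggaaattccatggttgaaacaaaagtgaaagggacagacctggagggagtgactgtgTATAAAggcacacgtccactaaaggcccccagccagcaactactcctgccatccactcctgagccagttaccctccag
Rsad2: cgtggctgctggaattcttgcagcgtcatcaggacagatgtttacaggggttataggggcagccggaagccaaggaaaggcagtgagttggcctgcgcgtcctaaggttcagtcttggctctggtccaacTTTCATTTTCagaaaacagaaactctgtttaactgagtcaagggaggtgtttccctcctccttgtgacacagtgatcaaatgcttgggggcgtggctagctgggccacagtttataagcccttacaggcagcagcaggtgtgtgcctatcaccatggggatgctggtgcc
Ifit3: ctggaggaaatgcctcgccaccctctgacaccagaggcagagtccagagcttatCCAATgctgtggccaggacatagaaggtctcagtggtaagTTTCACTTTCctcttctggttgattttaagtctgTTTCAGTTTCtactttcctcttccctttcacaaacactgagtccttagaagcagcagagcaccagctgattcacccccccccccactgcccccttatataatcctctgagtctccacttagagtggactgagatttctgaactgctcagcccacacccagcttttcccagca

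The 12 largest falls were those of Tk1, Plau, Ccna2, Birc5, Kbtbd11, E2f8, Ccnb2, Fam64a, Ptgs1, Kif11, Cdca3 and Aurkb, from -4.4 to -5.1 log2 units. Most act in DNA synthesis or mitosis. Plau, the urokinase plasminogen activator, and Ptgs1 do not, and for Kbtbd11, a Kelch and BTB domain protein, no role is given. Kbtbd11 had 0.89, 0.84 and 0.88 FPKM with LPS, against 46.2, 46.3 and 45.6 FPKM untreated. Its change was -4.65. Kbtbd11 passed the filter through the untreated libraries alone, so it had to differ and no p-value is given. The receptor of Plau went the opposite way, as Plaur averaged 288.0 ± 5.08 FPKM with LPS and 38.9 ± 0.529 FPKM untreated, a change of 2.86.

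Ccnb2, a mitotic cyclin, is shown as the gene of this set with most matches. Its window held 3 CCAAT boxes and 2 CHR sequences (capitals), and lies at chr9:70421505-70421804 on the minus strand of GRCm38.p6. It had 4.14, 3.94 and 4.16 FPKM with LPS, against 116.9, 114.4 and 114.9 FPKM untreated.
Ccnb2: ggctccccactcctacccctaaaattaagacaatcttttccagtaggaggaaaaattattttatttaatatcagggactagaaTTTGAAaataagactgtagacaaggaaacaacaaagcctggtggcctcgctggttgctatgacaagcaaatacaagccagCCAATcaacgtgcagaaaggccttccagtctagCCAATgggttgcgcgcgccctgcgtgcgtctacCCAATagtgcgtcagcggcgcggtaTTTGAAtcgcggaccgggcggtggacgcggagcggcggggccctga

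All 40 genes of the cell cycle list fell by 1 log2 unit or more on both scales, against 13.1% of all genes. The list was written with earlier results of these data known, so this is a description. Most listed genes that supply DNA precursors fell too. Of 41 listed genes of nucleotide and folate-linked synthesis, all tested, 1 rose by 1 log2 unit or more and 27 fell as much, 22 on both scales, with a median change of -1.47 against -0.39 over all genes. Rrm2, the ribonucleotide reductase subunit that limits deoxynucleotide supply, had 1.88 ± 0.130 FPKM with LPS and 55.7 ± 0.261 FPKM untreated. Dut, which removes dUTP, had 1.61 ± 0.183 FPKM with LPS and 41.5 ± 0.717 FPKM untreated. The member that rose was Samhd1, which breaks down deoxynucleotides, with 201.2, 199.1 and 196.6 FPKM with LPS, against 53.0, 51.8 and 51.7 FPKM untreated. Samhd1 is also known as an interferon-induced gene. Upp1, a uridine phosphorylase that is not on the list, had 26.9 ± 0.914 FPKM with LPS and 0.587 ± 0.0681 FPKM untreated.

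DNA repair genes had the lowest median of the function lists. Of 62 tested, 1 rose by 1 log2 unit or more (1.61%) and 40 fell as much (64.5%, against 22.1% of all genes). On both scales 31 fell (50.0%, against 13.1%), and the median was -1.50. The largest falls were in genes that also serve replication. Ung, which removes uracil from DNA, had 0.923 ± 0.0451 FPKM with LPS and 28.3 ± 2.05 FPKM untreated, the DNA ligase Lig1 3.61 ± 0.130 FPKM with LPS and 64.2 ± 1.55 FPKM untreated, and the recombination helicase Rad54l 1.50 ± 0.0208 FPKM with LPS and 27.9 ± 1.76 FPKM untreated. Ercc1, a nuclease subunit of nucleotide excision repair, was the member that rose, with 32.3, 32.8 and 35.4 FPKM with LPS, against 10.4, 10.5 and 9.85 FPKM untreated.

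Motor and nuclear pore genes moved the same way. Of 26 tested kinesins, grouped by symbol, none rose and 15 fell by 1 log2 unit or more (57.7%, against 22.1% of all genes). On both scales 13 fell (50.0%, against 13.1%). The largest fall was that of Kif11, which slides spindle microtubules, with means of 0.927 FPKM with LPS and 41.2 FPKM untreated. Of 19 nucleoporins tested, 11 fell (57.9%), 5 on both scales (26.3%), with a median of -1.08. Nup210, a pore membrane protein, had 8.43 ± 0.0781 FPKM with LPS and 50.4 ± 1.03 FPKM untreated. Histone genes are poorly covered by poly(A) selection, and 15 of the 79 in the table were tested. Of these 2 rose (13.3%, against 8.47% of all genes) and 8 fell (53.3%, against 22.1%), all 8 on both scales.

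Enzymes that write or erase DNA and histone marks were read in 2 lists. Of 41 tested genes for histone acetylation, deacetylation and DNA methylation, 1 rose by 1 log2 unit or more and 16 fell as much (39.0%, against 22.1% of all genes), 9 on both scales. Dnmt1, the maintenance DNA methyltransferase, had 6.92, 7.17 and 6.5 FPKM with LPS, against 102.9, 103.7 and 103.0 FPKM untreated. Its partner Uhrf1 had 9.10 ± 0.529 FPKM with LPS and 104.2 ± 0.910 FPKM untreated, and the deacetylase Hdac5 changed by -2.69. The adjusted p of Dnmt1 was 1.48e-11, at a change of -3.73 as deposited and -3.32 after scaling. Tet2, which oxidises methylcytosine, was the member that rose, by 1.12. Of 46 genes that write or erase histone methylation, none rose by that much and 12 fell, 6 on both scales. These falls, 26.1% and 13% of the list, were close to the 22.1% and 13.1% of all genes. The largest were those of Suv39h1 (-2.35), Suv420h2 (-1.87) and Ezh2 (-1.86), all methyltransferases.

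Ribosome and RNA processing genes differed by group. Of 56 ribosome biogenesis factors tested, none rose and 7 fell by 1 log2 unit or more (12.5%, against 22.1% of all genes). On both scales 3 fell (5.36%, against 13.1%), and the median of -0.49 was close to that of all genes. None of 78 genes with symbols of cytosolic ribosomal proteins changed by that much as deposited, and their median was -0.06. Of 13 small nucleolar RNA host genes, non-coding genes whose introns carry snoRNAs, 8 fell (61.5%), 7 on both scales (53.9%), with a median of -1.60. Snhg4 had 1.93, 2.71 and 1.53 FPKM with LPS, against 17.6, 17.1 and 15.0 FPKM untreated. Of 10 RNA exosome genes 5 fell (50.0%), 3 on both scales (30.0%), led by Exosc6 (-2.31), a core subunit of this 3′ to 5′ nuclease complex.

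**Figure D4:**
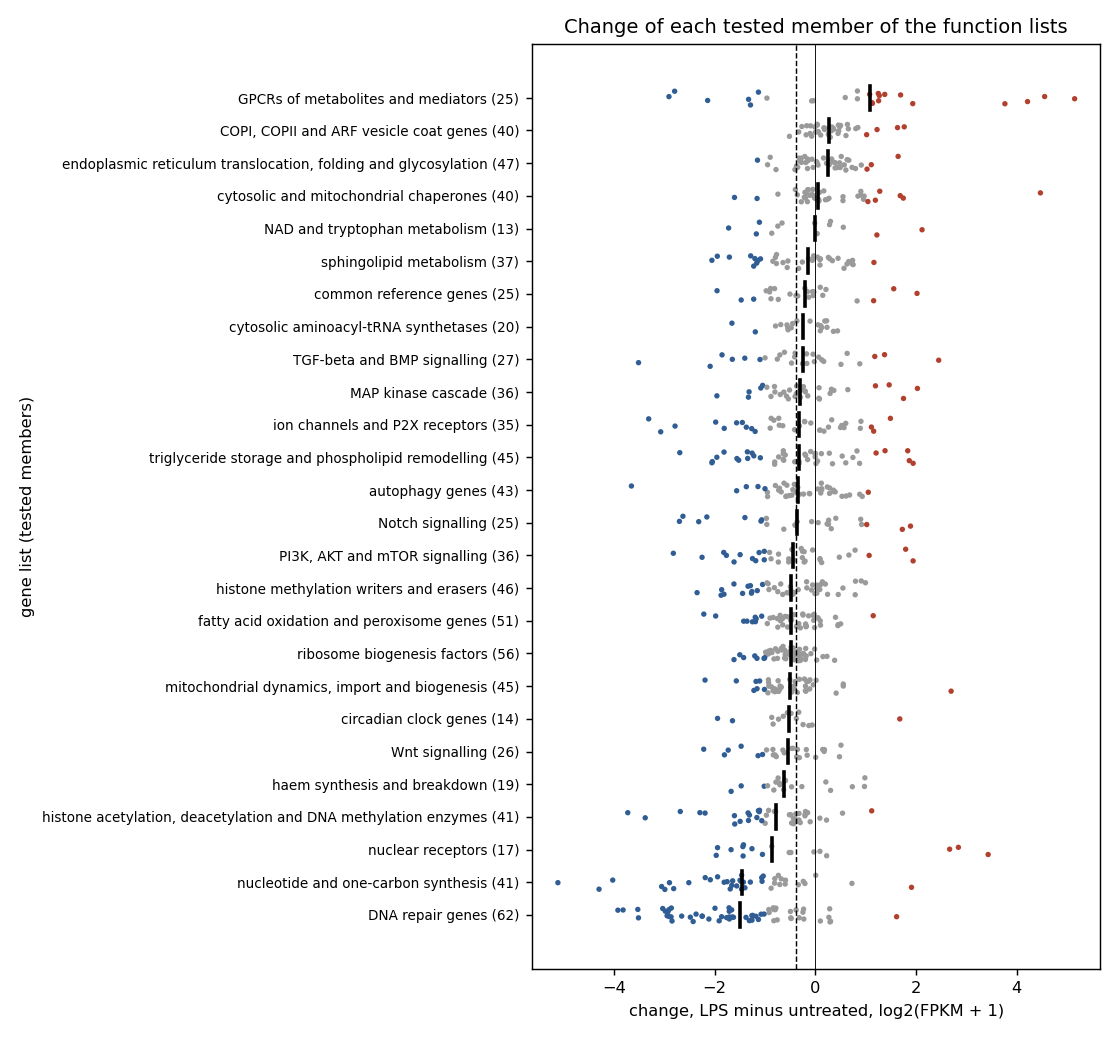
Change of each tested member of the function lists (LPS minus untreated, log2(FPKM + 1)), 1 point per gene, red at 1 or more and blue at -1 or less, with the list's median as a black bar and the number tested in brackets; the dashed line is the median of all genes (-0.39) and the thin line is 0. Receptors for metabolites and mediators have the highest median (1.08), DNA repair genes the lowest (-1.50). Members that passed the filter through a single group, and so had to differ, are among the points.

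Receptors for metabolites, nucleotides and lipid mediators had the highest median of the function lists, 1.08. These are G protein-coupled receptors by which macrophages sense complement fragments, purines and fatty acids. Of 46 listed, 42 were in the table and 25 were tested. By 1 log2 unit or more, 13 rose (52.0%, against 8.47% of all genes). By as much 6 fell (24.0%, against 22.1%), 3 of them on both scales. Members under 1 FPKM in every library of a group, such as C5ar1, Hcar2 and Lpar5, passed the filter through the other group alone. They had to differ, and they count in these shares and in the median. C5ar1, the receptor of the complement fragment C5a, had 61.8, 58.7 and 63.0 FPKM with LPS, against 0.87, 0.68 and 0.69 FPKM untreated. Hcar2, which senses niacin and ketone bodies, had 33.3, 32.5 and 32.1 FPKM with LPS, against 0.44, 0.37 and 0.47 FPKM untreated. The adenosine receptor Adora2b had 59.7, 58.0 and 55.7 FPKM with LPS, against 2.10, 2.08 and 2.29 FPKM untreated. The changes of C5ar1, Hcar2 and Adora2b were 5.16, 4.56 and 4.22. C5ar2, the other C5a receptor, stayed under 1 FPKM in all 6 libraries.

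Further members of this list are given here, chosen after their values were seen. Adora2a, the other main adenosine receptor of macrophages, had 13.2 FPKM with LPS and 0.04 FPKM untreated as means, the UDP receptor P2ry6 had 69.2 FPKM with LPS and 20.7 FPKM untreated, and the C3a receptor C3ar1 had 32.0 FPKM with LPS and 7.63 FPKM untreated. In the opposite direction, the lysophosphatidic acid receptor Lpar5 averaged 0.487 ± 0.101 FPKM with LPS and 9.33 ± 0.485 FPKM untreated, and the sphingosine 1-phosphate receptor S1pr1 0.820 ± 0.113 FPKM with LPS and 7.02 ± 0.225 FPKM untreated. The falls of Lpar5 and S1pr1 held on both scales.

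**Figure D5:**
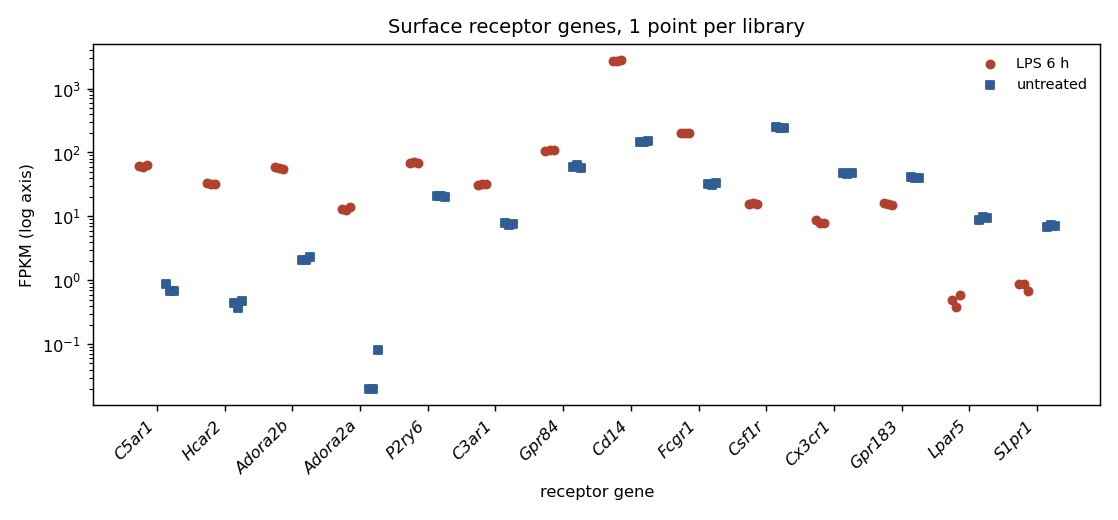
FPKM (log axis) of 14 surface receptor genes in the 6 libraries, 1 point per library, LPS (red circles) left of untreated (blue squares). C5ar1 lies between 58.7 and 63.0 FPKM with LPS and below 0.9 FPKM untreated. Csf1r lies between 15.5 and 16.2 FPKM with LPS and above 242 FPKM untreated. The 14 genes were chosen with their values known, so that the groups are apart in all of them is a description. Of all 10763 genes, 2726 had every LPS library above every untreated one, and 6806 had every LPS library below.

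The receptor complex for LPS itself moved in both directions. Of 25 tested TLR4 signalling components, 7 rose by 1 log2 unit or more (28.0%, against 8.47% of all genes). By as much 4 fell (16.0%, against 22.1%), 1 of them on both scales, and the median was near 0. Tlr4 had 1.18, 1.03 and 1.11 FPKM with LPS, against 4.88, 4.84 and 4.96 FPKM untreated, a change of -1.49 as deposited and -1.19 after scaling. Cd14 had 2714, 2715 and 2752 FPKM with LPS, against 145.7, 147.5 and 152.7 FPKM untreated. Downstream, the kinase Ikbke, which activates interferon regulatory factors, rose by 4.42, and Irak3, a kinase-dead inhibitor of the pathway, rose by 1.73.

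In the other signalling lists the shares of rises and falls were mostly near those of all genes (8.47% and 22.1%), and values of single members are given. In the TGF-β and BMP list, 3 of 27 tested genes rose (11.1%) and 6 fell (22.2%), 5 on both scales. Smad3, the signal-transducing Smad, had 0.56, 0.57 and 0.59 FPKM with LPS, against 16.7, 17.1 and 17.2 FPKM untreated (change -3.52). Smad3 passed the filter through the untreated libraries alone, so it had to differ and no p-value is given. The co-receptor Eng rose by 2.45 and the inhibitory Smad7 by 1.38. In the Notch list, 3 of 25 rose (12%) and 7 fell (28.0%), 4 on both scales. The rises were those of the ligand Dll1 and the receptors Notch1 and Notch2, and Dll1 had 2.81, 2.84 and 3.20 FPKM with LPS, against 0.06, 0.08 and 0.05 FPKM untreated. The falls were led by Lfng (-2.70) and Mfng (-2.63), fringe glycosyltransferases that modify Notch receptors, and by the ligand Jag2 (-2.32). Of 26 Wnt genes none rose by that much and 6 fell (23.1%), 4 on both scales, led by the receptor Fzd7 (-2.22).

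Among 36 genes of PI3K, AKT and mTOR signalling, 3 rose (8.33%) and 11 fell (30.6%), 6 on both scales. All 3 rises were in adaptors or regulatory subunits. Pik3r5, the regulatory subunit of the PI3K γ isoform that G protein-coupled receptors engage, had 107.0, 110.1 and 109.8 FPKM with LPS, against 27.8, 28.0 and 26.9 FPKM untreated. The regulatory subunit Pik3r2 went the other way, with 3.16 ± 0.229 FPKM with LPS and 28.4 ± 0.848 FPKM untreated. Of 36 MAP kinase cascade genes 4 rose (11.1%) and 5 fell (13.9%), 1 on both scales, and the largest rise was that of Map3k8 (2.03), the kinase above MEK in TLR4 signalling.

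Of 35 ion channel genes tested, 13 were called higher and 20 lower, where 25.0% and 62.9% of all genes were. By 1 log2 unit or more 3 rose (8.57%, against 8.47%) and 10 fell (28.6%, against 22.1%), 7 on both scales. The 3 largest falls were in channels that release or depend on calcium. Tpcn1, an endolysosomal channel, had 4.38, 4.40 and 4.37 FPKM with LPS, against 51.8, 55.4 and 50.5 FPKM untreated. The inositol trisphosphate receptor Itpr3 had 2.31 ± 0.0624 FPKM with LPS and 26.9 ± 1.43 FPKM untreated. The calcium-activated potassium channel Kcnn4 had 8.55 ± 0.509 FPKM with LPS and 65.0 ± 0.665 FPKM untreated. Itpr1, a relative of Itpr3, rose by 1.11. The ATP-gated channels P2rx4 and P2rx7 changed by 1.16 and -1.81.

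Nuclear receptors, which are ligand-regulated or orphan transcription factors, moved in both directions, with more falls than rises. Of 30 listed, 17 were tested, and 3 rose by 1 log2 unit or more (17.6%, against 8.47% of all genes). By as much 8 fell (47.1%, against 22.1%), 6 of them on both scales. All 3 rises were Nr4a orphan receptors, known as immediate-early genes. Nr4a3 passed the filter through the LPS libraries alone. Nr4a1 had 42.8, 42.8 and 44.1 FPKM with LPS, against 2.92, 3.45 and 2.91 FPKM untreated, and Nr4a2 and Nr4a3 rose by 2.67 and 2.84. The largest fall was that of the retinoic acid receptor Rara, with 3.64 ± 0.248 FPKM with LPS and 17.2 ± 0.655 FPKM untreated. Of 14 clock genes tested, Nfil3 rose by 1.68 log2 units, and Nr1d2 and Cry1 fell by 1.94 and 1.65 on the log2 scale. No other clock gene changed by 1 log2 unit or more. The shares of 7.14% and 14.3% were below the 8.47% and 22.1% of all genes. Nr1d2, a repressor of the clock's positive limb, had 1.22, 1.10 and 1.08 FPKM with LPS, against 7.49, 6.98 and 7.15 FPKM untreated.

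Genes of the secretory route were mostly higher at modest size. Of 40 genes of COPI, COPII and ARF vesicle coats, 26 were called higher and 5 lower, where 25.0% and 62.9% of all genes were. By at least 1 log2 unit 4 rose (10.0%, near the 8.47% of all genes) and none fell (against 22.1%). The median was 0.28, against -0.39 over all genes. The COPII coat genes Sec23b and Sec24d, which carry cargo out of the endoplasmic reticulum, averaged 131.4 ± 1.17 and 44.5 ± 0.879 FPKM with LPS, against 41.6 ± 0.551 and 18.4 ± 0.609 FPKM untreated. The cargo receptor Tmed5 had 82.7, 87.8 and 83.5 FPKM with LPS, against 21.0, 27.0 and 24.8 FPKM untreated. Of 47 genes for translocation, folding and glycosylation in the endoplasmic reticulum, 26 were called higher and 16 lower, with a median of 0.24. Of these 47, 3 rose by 1 log2 unit or more (6.38%, against 8.47% of all genes). By as much 1 fell (2.13%, against 22.1%), and the fall did not hold after scaling. The largest rise was that of Dnajb9 (1.65), a co-chaperone of Hspa5.

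Chaperones were divided, and proteasome genes were mostly higher. Of 40 cytosolic and mitochondrial chaperones, 18 were called higher and 14 lower, where 25.0% and 62.9% of all genes were, with a median of 0.05. By 1 log2 unit or more 6 rose (15.0%, against 8.47% of all genes) and 2 fell (5.0%, against 22.1%), 1 on both scales. Hspa1b, the heat-inducible Hsp70, had 31.0, 31.0 and 29.6 FPKM with LPS, against 0.39, 0.34 and 0.53 FPKM untreated, though it shares reads with its near-identical copy Hspa1a. Of 49 genes with proteasome symbols, 36 were called higher and 9 lower, with a median of 0.46. By 1 log2 unit or more 8 rose (16.3%) and 1 fell (2.04%). The gene that fell, Psmc3ip, is a recombination factor and not a proteasome subunit. The largest rises were those of Psmb10, an immunoproteasome subunit, with 158.0, 157.2 and 157.9 FPKM with LPS, against 40.1, 41.2 and 39.3 FPKM untreated, and of the core subunit Psma6, with 440.7 ± 8.09 FPKM with LPS and 133.6 ± 10.4 FPKM untreated.

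Lysosomal genes did not move as a block, although cathepsins were mostly higher. Of 14 cathepsins 11 were tested, and 8 were called higher and 3 lower, where 25.0% and 62.9% of all genes were. Their median was 0.66, against -0.39 over all genes. By 1 log2 unit or more 2 rose (18.2%, against 8.47% of all genes) and 1 fell (9.09%, against 22.1%). Ctsc, which activates serine proteases, rose by 2.04, Ctsl by 1.46, while Ctsf fell by 1.65 on the log2 scale. Of 43 autophagy genes, Map1lc3a rose (2.33%) and 5 fell (11.6%) by 1 log2 unit or more, 2 on both scales. Tfeb, the factor that drives lysosomal and autophagy genes, had 0.50, 0.78 and 0.74 FPKM with LPS, against 19.6, 21.1 and 19.5 FPKM untreated (change -3.66). Tfeb passed the filter through the untreated libraries alone, so it had to differ and no p-value is given. Of the 17 tested vacuolar ATPase genes, 8 were called higher and 5 lower, and their median was 0.01. None rose by 1 log2 unit, and 1 fell by as much (5.88%), which did not hold after scaling.

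In metabolism, mitochondrial and peroxisomal genes mostly followed the median of all genes. Of 44 tested complex I genes none rose and 3 fell by 1 log2 unit or more, none on both scales, with a median of -0.41. Of 51 genes of fatty acid oxidation and peroxisomes, 1 rose (1.96%, against 8.47% of all genes). By the same measure 9 fell (17.6%, against 22.1%), 3 of them on both scales. Hadh, a β-oxidation enzyme, and the peroxin Pex10 were among these, at -1.98 and -1.42. Ppargc1b, a coactivator of mitochondrial genes, had 0.91, 0.82 and 0.90 FPKM with LPS, against 7.96, 8.07 and 6.77 FPKM untreated. The ubiquitin ligase Park2 rose by 2.70, but its LPS libraries were uneven, at 5.09, 29.2 and 6.49 FPKM, against 0.71, 0.75 and 0.68 FPKM untreated. Without LPS library 2 its change was 1.98.

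Lipid genes held large single changes, at list shares near those of all genes. Of 45 genes of triglyceride storage and phospholipid remodelling, 5 rose by 1 log2 unit or more (11.1%) and 12 fell as much (26.7%), 7 on both scales. Lpin1, which makes diacylglycerol from phosphatidic acid, had 0.18, 0.17 and 0.09 FPKM with LPS, against 6.90, 6.19 and 6.19 FPKM untreated. Hilpda, an inhibitor of the triglyceride lipase ATGL, had 33.4, 33.7 and 33.9 FPKM with LPS, against 8.63, 8.11 and 8.77 FPKM untreated. The sterol exporters moved apart. Abca1 had 18.9, 17.5 and 17.9 FPKM with LPS, against 1.12, 1.22 and 1.17 FPKM untreated, and Abcg1 had 1.14, 1.18 and 1.22 FPKM with LPS, against 11.3, 11.6 and 11.6 FPKM untreated. Their changes were 3.14 and -2.52, with adjusted p of 1.39e-10 and 3.61e-10.

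Transporters and surface sugars changed member by member. Of 318 listed solute carrier genes, 179 were tested, and 14 rose by 1 log2 unit or more (7.82%, against 8.47% of all genes). By as much 50 fell (27.9%, against 22.1%), 30 on both scales (16.8%, against 13.1%). Slc15a3, a lysosomal peptide and histidine transporter, had 387.2, 355.4 and 363.5 FPKM with LPS, against 16.6, 17.4 and 17.6 FPKM untreated. Slc7a11, the cystine and glutamate exchanger, averaged 46.5 ± 0.890 FPKM with LPS and 2.73 ± 0.0635 FPKM untreated, and the amino acid transporter Slc43a2 changed by -3.00. Of 10 sialyltransferases 2 rose and 5 fell, 3 on both scales. St3gal1, which caps O-glycans, had 72.9, 69.3 and 71.8 FPKM with LPS, against 7.00, 7.16 and 6.62 FPKM untreated, while St6gal1, which caps N-glycans, had 0.99, 0.86 and 0.89 FPKM with LPS, against 17.5, 16.0 and 16.0 FPKM untreated. The changes of the pair were 3.19 and -3.19. Among 13 tested genes of NAD and tryptophan metabolism, Bst1 and Nampt rose by 2.12 and 1.22 (15.4% of the list), and 3 fell (23.1%), 1 on both scales.

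Genes often used as references were not all steady. Of 25 such genes tested, 3 rose by 1 log2 unit or more and 3 fell as much, 2 of the falls on both scales. Actb had 3668, 3737 and 3724 FPKM with LPS, against 1643, 1725 and 1616 FPKM untreated, and Actg1, the other cytoplasmic actin, had 1624, 1681 and 1645 FPKM with LPS, against 410.1, 397.9 and 408.5 FPKM untreated. The changes were 1.16 for Actb and 2.02 for Actg1, and B2m rose by 1.56. Tubb5 fell by 1.95 on the log2 scale and also after scaling, and Polr2a changed by -1.23 as deposited and -0.80 after scaling. As deposited, Rplp0 (-0.04, adjusted p = 0.246), Rps18 (-0.06, adjusted p = 0.103) and Eef1a1 (-0.03, adjusted p = 0.507) did not pass the test. After median-of-ratios scaling the same genes were at 0.40, 0.38 and 0.41, so which genes count as steady depended on the scale.

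The cells carried macrophage genes in both groups. Of 20 macrophage markers, 17 were tested, Cd200r1 and Mertk stayed under 1 FPKM, and C1qa was listed at 0 in all 6 libraries. As deposited, 10 were called higher and 5 lower, where 25.0% and 62.9% of all genes were. By 1 log2 unit or more 5 rose (29.4%, against 8.47%) and 3 fell (17.6%, against 22.1%), all 3 on both scales. Csf1r, the receptor of the macrophage growth factor, had 15.6, 16.2 and 15.5 FPKM with LPS, against 253.9, 244.3 and 242.3 FPKM untreated (change -3.89, adjusted p = 6.67e-12). The chemokine receptor Cx3cr1 and the lysosomal protein Laptm5 changed by -2.39 and -2.03. The Fc receptor Fcgr1 had 199.1, 198.4 and 200.4 FPKM with LPS, against 31.9, 31.0 and 32.9 FPKM untreated, and Adgre1, the F4/80 antigen, rose by 1.53. The adaptor Tyrobp had overlapping values in the groups.

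Markers of other cell types were low next to macrophage markers, and several were higher with LPS. None of 10 fibroblast, 7 epithelial and 4 adipocyte markers in the table passed the filter, and Dcn, Cdh1 and Plin1 were listed at 0 in all 6 libraries. Of 6 endothelial markers 1 passed, Pecam1, with 2.40, 2.02 and 2.39 FPKM with LPS, against 0.76, 1.14 and 1.04 FPKM untreated, and the list summed to 2.24 to 2.61 FPKM with LPS and 0.89 to 1.24 FPKM untreated. Of 12 lymphocyte markers only Lck passed, with 4.94, 4.52 and 4.64 FPKM with LPS, against 1.63, 1.61 and 2.36 FPKM untreated. Of 9 dendritic cell markers 6 passed, and their summed level over all 9 was 20.2 to 21.9 FPKM with LPS and 11.7 to 13 FPKM untreated. Within that list Ccr7 had 7.29, 7.75 and 8.56 FPKM with LPS, against 0.03, 0.03 and 0 FPKM untreated, and Batf3 was at 0. The 7 neutrophil and mast cell markers summed to 19.7 to 24.4 FPKM with LPS and 6.76 to 7.63 FPKM untreated, most of it Cxcr2. S100a8 had 2.06, 1.90 and 1.74 FPKM with LPS and was listed at 0 in the untreated libraries, while Mpo, Kit and Cpa3 were at 0. The part of these markers in the results was not tested. In bulk RNA, more cells of a type and more RNA per cell cannot be told apart.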

How the data were processed

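Poly(A) RNA was sequenced paired-end, per the labels' protocols. The authors deposited a single table with an FPKM for each of 18190 genes in 12 libraries, written to 2 decimals. Named in the submitters' processing notes are HISAT2 2.0, Bowtie 0.12.2 and StringTie 1.3.0. Of the mouse builds named there, mm8 or mm9, none is tied to the table, so no coordinates of its build are given. The annotation and the use of strand are not given in the sources used here, so overlapping, antisense and near-identical genes are uncertain. Of the columns, 1 unnamed was not used, and 27 symbols turned into dates were restored from gene IDs.

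Groups follow the labels. A gene was kept if 3 or more of the 6 libraries had at least 1 FPKM. Their log2(FPKM + 1), a scale that understates changes of low genes, was fitted with limma 3.58.1 in R 4.3.3 with a mean trend, two-sided, with Benjamini-Hochberg adjustment over 10763 genes and a call at an adjusted p under 0.05. The fit was tested on simulated data. Figures and tables used Python 3.11.15 and matplotlib 3.10.9. Counts of fragments were not available, so no interval for counting error is given. Alternatives were another pseudocount, 2 filters, 2 scalings, all 12 libraries, a replicate block and leaving out each library. The count of falls that held on both scales was chosen after seeing the data.

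The comparison and the gene lists were chosen with earlier results of these data known, so list counts and medians are descriptions without a test. Members that passed the filter through a single group, and so had to differ, are counted in them. Families were grouped by symbol prefix and may hold genes of other function. Genes were named by a rule: the 12 largest rises and falls (mean of 5 FPKM or more, groups not overlapping, no predicted models or best known cytokines), the 3 largest called changes of each list and described family, the 6 largest gains and losses in FPKM, the largest rise and fall in each level band, and reference genes. Some genes the rule names are left out. Named outside it, after their values were seen, were Adgre1, Adora2a, C3ar1, Cx3cr1, Dll1, Ercc1, Gpr84, Gpr183, Hdc, Hilpda, Hspa5, Itpr1, Laptm5, Lpar5, Map1lc3a, Marcksl1, Nos2, Notch1, Notch2, P2rx4, P2rx7, P2ry6, Plaur, Procr, Ptges, Rara, S1pr1, Samhd1, Smad7, Tet2, Timp1, Tlr4, Tyrobp and Upp1. Promoter windows are from RefSeq (GRCm38.p6), the first listed start of each gene.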

Additional observations from a re-analysis of the deposited data

How the results depend on the processing

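Counts of calls moved mainly with the scaling. After median-of-ratios scaling 4700 genes were higher, 1386 of the genes were higher by at least 1 log2 unit, and 1408 were lower by at least 1 log2 unit, against 2686, 912 and 2375 as deposited. After quantile normalization 4328 were higher and 1458 were lower by at least 1 log2 unit. Falls counted only where they held as deposited and after median-of-ratios scaling were 1408. A pseudocount of 0.1 gave 1025 rises and 2861 falls of at least 1 log2 unit, a 5 FPKM filter 763 and 1992 among 8671 genes, no filter 914 and 2374 among 17223, and all 12 libraries 910 and 2372. With 1 library left out there were 905 to 919 rises and 2342 to 2385 falls. The replicate block gave 2665 genes higher and 6756 lower, with 912 and 2375 by at least 1 log2 unit. Deviations of same-numbered libraries correlated at 0.007, 0.008 and 0.028, so no shared deviation was seen. Whether same-numbered libraries were paired was not stated. Of 4207 values of 325 genes under the alternatives, 4185 kept their direction and their side of the threshold, 7 were weaker and 4 stronger. In the opposite direction to the deposited scale were, after median-of-ratios scaling, Gapdh (0.0884), Rps27l (0.0116), Rplp0 (0.40), Rpl13a (0.23), Rps18 (0.38), Tfrc (0.28), Eef1a1 (0.41), Eef2 (0.0534) and Rpl32 (0.31), and after quantile normalization Pgk1 (-0.10) and Tyrobp (-0.28); the cause was not tested. The median of 38 of 81 lists and families, taken relative to that of all genes, changed sign under at least 1 alternative, solute carriers and chaperones among them. Depth is unknown, so precision rests on the spread of 3 libraries per group.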

Other observations

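Gene families outside the function lists also held large single changes. Among 14 tested integrins 3 rose by 1 log2 unit or more (21.4%, against 8.47% of all genes). By as much 2 fell (14.3%, against 22.1%), and these falls held on both scales. Itga5, the fibronectin receptor subunit, had 157.7, 153.2 and 162.3 FPKM with LPS, against 25.9, 24.3 and 25.4 FPKM untreated. Itgb5, which pairs with the αv subunit, had 3.22, 3.61 and 3.61 FPKM with LPS, against 24.5, 24.2 and 24.7 FPKM untreated. Among 18 tested protein tyrosine phosphatases 4 rose (22.2%) and 3 fell (16.7%), 1 on both scales. The receptor-type Ptprj averaged 145.4 ± 3.65 FPKM with LPS and 15.3 ± 0.813 FPKM untreated (SD, n = 3 each).

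Aldh1a2, which makes retinoic acid, had 9.92, 9.99 and 9.98 FPKM with LPS, against 0.02, 0.12 and 0.09 FPKM untreated. Cox6a2, the muscle-type isoform of a cytochrome oxidase subunit, had 54.1, 49.4 and 58.0 FPKM with LPS, against 8.57, 9.98 and 9.63 FPKM untreated. Among 23 Kelch-like genes none rose by at least 1 log2 unit. By as much 8 fell (34.8%, against 22.1% of all genes), 7 on both scales (30.4%, against 13.1%). The falls were led by Klhl21 (-2.36) and Klhl6 (-2.26). Changes are on the log2(FPKM + 1) scale from limma.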
